A study of Saccharomyces cerevisiae with 15 samples.

Results

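The 39 genes described here encode proteins that help to assemble the large subunit of the yeast ribosome. They were chosen by name, as the rows of the deposited count table whose gene identifier is in a list of 39 such factors, and all 39 were found among the 7127 rows. RNA with poly(A) tails was sequenced from Saccharomyces cerevisiae of strain W303 and genotype ZPR1-AID. In this strain the chaperone Zpr1, which helps the translation elongation factor eEF1A to fold, is fused at its C-terminal end to an auxin-inducible degron. The auxin derivative 5-Ph-IAA directs such a tagged protein to degradation. The 15 libraries made 5 groups of 3, which were untreated cells at 0 h, cells with 5-Ph-IAA for 0.5 h, 1.5 h and 3 h, and cells with the solvent DMSO for 3 h. Every group carried ZPR1-AID, and no strain without the degron received 5-Ph-IAA, so effects of the compound and of the depletion cannot be told apart. DMSO was sampled at 3 h only, and the files hold no measure of Zpr1 protein.

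A ribosome's large subunit is built in the nucleolus on ribosomal RNA transcribed by RNA polymerase I. RNA helicases, GTPases, methyltransferases and scaffold proteins act on the particle in turn and leave it again, and the last of them are removed in the cytoplasm. In budding yeast the genes of these factors form a regulon whose mRNA falls when growth slows. Many of their promoters carry the elements PAC, bound by the repressors Dot6 and Tod6, and RRPE, bound by Stb3, and the activator Sfp1 acts on the same regulon.

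The promoters come first because the rule that chose the genes did not use them. In each window of 250 bases before to 50 after the start codon, PAC was searched as GATGAG and RRPE as AAAAATTT, on both strands, in the R64 genome of strain S288C (the cells were W303). These are the windows of the 3 genes with both elements and the largest changes at 3 h of 5-Ph-IAA relative to untreated cells. They are followed by NOP16, the gene called against DMSO, by RRP1, which holds no RRPE, and by NOP53, which holds no PAC. The last 3 were picked after their values were seen. Bases run 5′ to 3′ on the gene's strand, and capitals mark PAC and RRPE matches. The windows are chrXI:592491-592790 (minus strand) for RPF2, chrXV:832563-832862 (plus) for YTM1, chrI:101096-101395 (minus) for MAK16, chrV:156553-156852 (plus) for NOP16, chrIV:618257-618556 (minus) for RRP1 and chrXVI:277480-277779 (minus) for NOP53.
RPF2: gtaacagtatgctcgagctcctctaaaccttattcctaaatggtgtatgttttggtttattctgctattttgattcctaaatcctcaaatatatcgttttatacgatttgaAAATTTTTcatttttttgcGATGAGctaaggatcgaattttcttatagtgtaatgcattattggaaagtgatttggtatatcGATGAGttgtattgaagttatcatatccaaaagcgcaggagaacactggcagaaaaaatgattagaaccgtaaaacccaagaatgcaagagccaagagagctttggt
YTM1: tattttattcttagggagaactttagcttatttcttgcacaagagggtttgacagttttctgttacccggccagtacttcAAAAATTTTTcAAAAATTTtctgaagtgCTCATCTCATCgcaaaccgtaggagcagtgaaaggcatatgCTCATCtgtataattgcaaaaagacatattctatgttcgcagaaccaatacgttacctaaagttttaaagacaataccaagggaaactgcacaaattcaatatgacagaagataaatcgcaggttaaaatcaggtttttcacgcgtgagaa
MAK16: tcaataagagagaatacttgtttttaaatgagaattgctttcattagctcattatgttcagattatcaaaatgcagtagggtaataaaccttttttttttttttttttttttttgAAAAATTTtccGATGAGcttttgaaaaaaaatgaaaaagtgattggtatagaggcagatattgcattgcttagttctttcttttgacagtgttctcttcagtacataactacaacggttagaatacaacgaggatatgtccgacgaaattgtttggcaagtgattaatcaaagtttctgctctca
NOP16: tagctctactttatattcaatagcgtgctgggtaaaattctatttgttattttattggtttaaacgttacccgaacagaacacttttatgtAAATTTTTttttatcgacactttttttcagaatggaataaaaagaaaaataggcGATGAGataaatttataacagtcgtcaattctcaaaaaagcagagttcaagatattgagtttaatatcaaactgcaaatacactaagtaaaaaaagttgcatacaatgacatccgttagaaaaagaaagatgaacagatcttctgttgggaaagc
RRP1: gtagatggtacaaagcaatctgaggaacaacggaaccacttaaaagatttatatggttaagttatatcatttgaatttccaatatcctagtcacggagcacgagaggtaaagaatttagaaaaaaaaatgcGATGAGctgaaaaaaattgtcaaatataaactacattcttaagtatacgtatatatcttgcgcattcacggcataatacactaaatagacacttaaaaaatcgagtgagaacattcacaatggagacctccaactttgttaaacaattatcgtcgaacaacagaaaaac
NOP53: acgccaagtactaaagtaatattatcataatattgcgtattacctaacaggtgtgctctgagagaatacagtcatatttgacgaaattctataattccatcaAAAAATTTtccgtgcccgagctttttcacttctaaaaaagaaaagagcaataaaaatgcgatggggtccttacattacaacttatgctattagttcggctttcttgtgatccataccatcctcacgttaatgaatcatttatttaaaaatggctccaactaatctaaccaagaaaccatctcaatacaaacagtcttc

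PAC was found in 37 of the 39 promoters, or 94.87%, against 20.36% of all 6001 protein-coding promoters of the same length. RRPE was found in 34 of 39, or 87.18%, against 14.15% of all. Both stood in 32 promoters (82.05%), against 5.63% of all, and each of the 39 held at least 1 of them. NOP53 and SPB1 had no PAC match, and DBP6, DBP10, MAK5, RRP1 and NOC3 had no RRPE match. PAC and RRPE letters do not overlap each other, but RRPE can match both strands at nearly the same place. The matches also lay at like distances. The first base of a PAC lay 90 to 160 bases before the start codon in 82.1% of the 39 promoters, against 6.6% of all, and that of an RRPE in 71.8%, against 7.0% of all. Those shares also count promoters without a match. Of promoters that held the element, the shares were 86.5% against 32.2% for PAC and 82.4% against 49.4% for RRPE. The window spans the peak of the 39 genes' own matches, so these shares describe the matches and are no test. Among promoters with both, the nearest RRPE lay farther from the start codon than the nearest PAC in 30 of 32, against 233 of 338 over all promoters. In RPF2 the RRPE began at -139 and the PAC matches at -120 and -57. In MAK16 they began at -135 and -124, and in NOP16 at -159 and -105. A match describes letters in a window and says nothing of whether a factor was bound.

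**Figure D1:**
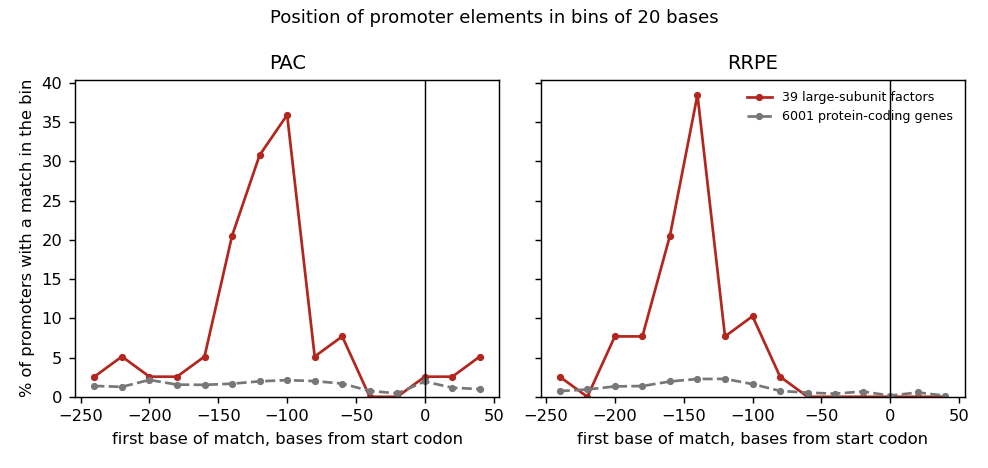
Share of promoters (y axis, percent) with a PAC (left) or RRPE (right) match whose first base falls in each bin of 20 bases, by distance from the start codon (x axis, bases). The red line is the 39 large-subunit factor genes and the grey dashed line all 6001 protein-coding promoters; the red lines peak between 90 and 160 bases before the start codon.

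Library totals ran from 2530145 to 21282576 counts. Library 2 of 5-Ph-IAA at 3 h was the shallowest, and mitochondrially encoded genes held 4.62% of its counts, against 0.0158% to 0.786% in the other 14 libraries. Library 3 of the same group correlated more with DMSO library 3 (Spearman 0.984 across genes) than with its own replicates (0.969 and 0.954). The 39 genes had at least 113 counts in every library, the lowest being DBP6, and up to 29952, in NOP7. All 39 passed the filter on low counts among 6069 genes tested. Adjusted p-values below come from edgeR's quasi-likelihood test with Benjamini-Hochberg adjustment over those 6069 genes, at a threshold of 0.05. Where genes are counted as having fallen or risen, those that passed this threshold are meant. Levels are CPM, that is, counts scaled to library size with TMM factors. Nothing in the labels tells if replicates came from separate cultures, and the p-values therefore reflect spread between libraries that may be technical.

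The genes' joint share of all counts was lower at each later time. It was 2.17%, 2.05% and 2.12% in the untreated libraries, 1.65%, 1.61% and 1.51% at 0.5 h of 5-Ph-IAA, 1.37%, 1.36% and 1.48% at 1.5 h and 1.23%, 0.929% and 0.991% at 3 h, with 1.39%, 1.27% and 1.19% in DMSO at 3 h. Each 5-Ph-IAA group lay wholly below untreated cells. At 3 h, library 1 of 5-Ph-IAA lay inside the DMSO range and the other 2 below it. The means were 2.11% ± 0.0603, 1.59% ± 0.0721, 1.40% ± 0.0666 and 1.05% ± 0.159 along the course and 1.28% ± 0.101 in DMSO (SD, n = 3 each). A share of counts also falls when other mRNAs rise. In bulk RNA, fewer cells holding an mRNA and less of it in each cell cannot be told apart.

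**Figure D2:**
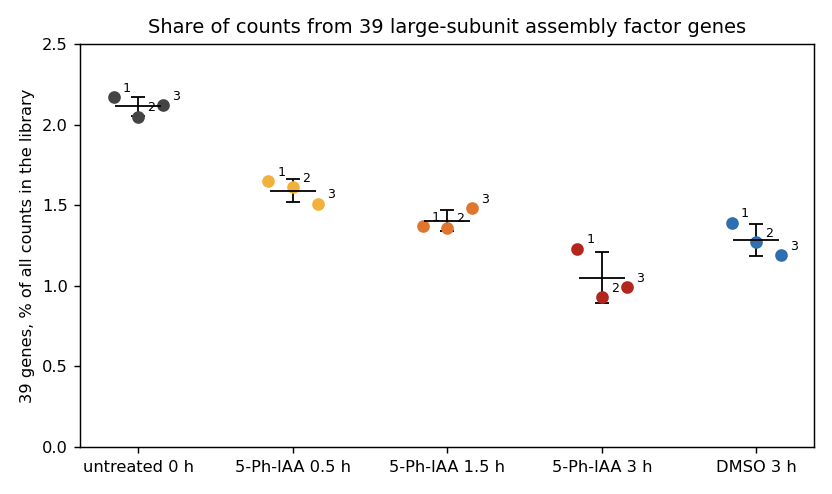
Percent of each library's counts that fell on the 39 genes (y axis) in each group (x axis). Points are libraries 1 to 3, the long bar is the mean and the whiskers 1 SD; the untreated libraries lie between 2.05% and 2.17% and those of 3 h of 5-Ph-IAA between 0.929% and 1.23%.

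Set against DMSO at the same time, which asks what 5-Ph-IAA did beyond solvent and hours in culture, the 39 genes showed small differences. All 39 means were lower after 3 h of 5-Ph-IAA than in DMSO, with log2 fold changes of -0.55 to -0.02 and a median of -0.23, against -0.02 over all genes tested. NOP16 alone passed the test. The count of 1 of 39 lower stands beside 2.87% of all genes lower and 5.07% higher. In 4 of the 39 genes, NOP8, NOP16, DBP3 and MAK16, every library of 5-Ph-IAA lay below every DMSO library, which was so for 10.2% of all genes. Both shares were close to those of all genes.

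NOP16 (YER002W), a nucleolar protein of early large-subunit particles, had 222, 221 and 201 CPM at 3 h of 5-Ph-IAA, against 376, 299 and 271 CPM in DMSO. The 3 treated libraries lay close together and all below the DMSO libraries, of which library 1 was the highest. It fell by 31.9%, a log2 fold change of -0.55 (SE 0.12), with an adjusted p of 0.0104. MAK16 (YAL025C) came next and did not pass, at -0.46 (SE 0.14, adjusted p = 0.0578), with 147, 192 and 212 CPM in 5-Ph-IAA, against 286, 217 and 256 CPM in DMSO. At the other end, RPF1 had a log2 difference of -0.02, with an unadjusted 95% interval of -0.29 to 0.25.

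Leaving out DMSO library 1 gave NOP16 a log2 fold change of -0.41 and an adjusted p of 0.0634, so that 0 of 39 passed in edgeR. Counts were 6 without DMSO library 2, 3 without library 1 and 2 without library 3 of 5-Ph-IAA. In these left-out fits, lower calls over all genes were 188 of 6091, 124 of 6108 and 199 of 6098, in that order. They were 92 of 6095 without DMSO library 1. When only the compared groups were fitted, 0 of the 39 passed and 33 of 6083 genes were called lower. At 3 h, deviations from the group means correlated between libraries of equal number by 0.196, 0.302 and 0.586. With DMSO libraries of another number the highest values were 0.17, 0.123 and -0.261, so number 1 stood out little. A fit that paired the 3 h libraries, chosen from these same counts, called 7 genes lower (RRP1, BRX1, DBP3, RPF2, NOP16, NUG1 and MAK16). In that fit 820 of 6069 genes passed, 351 lower and 469 higher. DESeq2 called 3, which were DBP3, NOP16 and MAK16, among 248 lower of 6798 genes. No gene of the 39 was called higher in this or any other comparison by edgeR or DESeq2, and with all 15 libraries and TMM scaling none had a positive log2 fold change in edgeR.

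**Figure D3:**
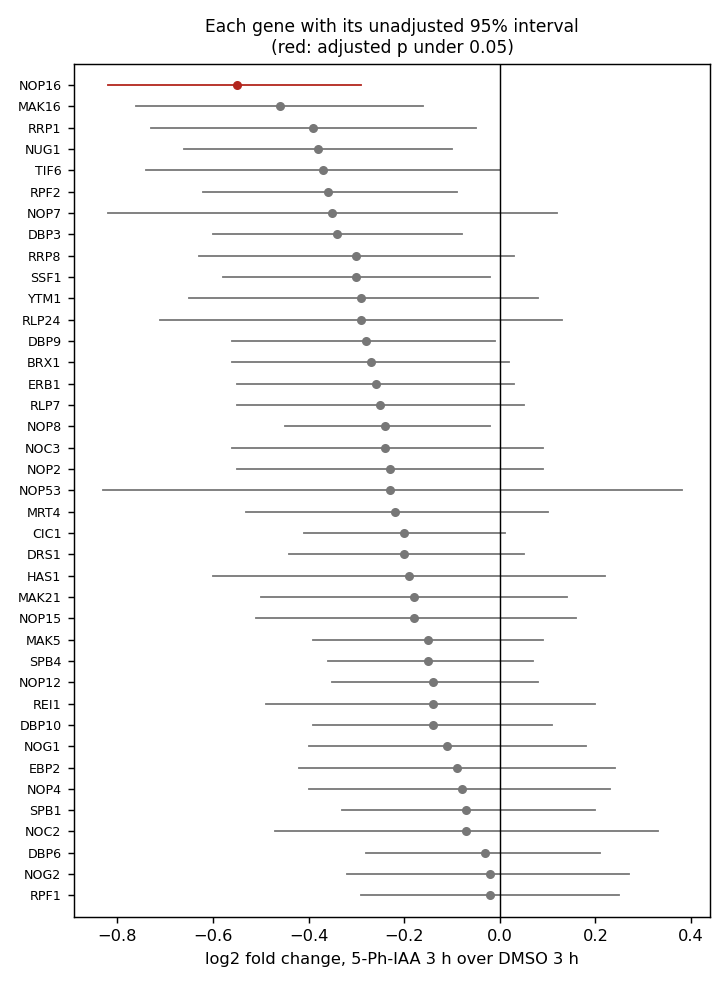
Log2 fold change of 5-Ph-IAA at 3 h over DMSO at 3 h (x axis) for each of the 39 genes (y axis), with unadjusted 95% intervals as lines. NOP16, in red, is the gene with an adjusted p under 0.05; all points lie at or below -0.02.

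Over the time course the mean levels of all 39 genes moved in the same direction, though not every step passed the test. Relative to untreated cells, 2 of the 39 genes were called lower after 0.5 h of 5-Ph-IAA, 34 after 1.5 h and 39 after 3 h. The median log2 fold changes were -0.33, -0.64 and -1.17, while the medians of all genes were -0.03, -0.02 and 0.01. Each gene's mean was lower at each later time than at the one before. Over all genes the shares called lower at these times were 2.78%, 9.74% and 19.7%, and those called higher 3.36%, 7.86% and 19.6%.

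At 0.5 h the genes that passed were DBP10 (log2 -0.53, SE 0.12, adjusted p = 0.0108) and RPF2 (-0.49, SE 0.13, adjusted p = 0.0281). In 34 of the 39 genes the 3 libraries at 0.5 h all lay below the 3 untreated ones, which was so for 16.6% of all genes. The exceptions were NOP15, NOP53, HAS1, NOC3 and MRT4. The count of calls at 0.5 h depended on the method, with 11 in DESeq2, 7 when only the compared groups were fitted and 9 with scaling by total counts. Lower calls over all genes also rose, from 169 of 6069 to 263 of 6798, 241 of 5942 and 240 of 6069 in these fits. Without 0.5 h library 2 or untreated library 3 no gene of the 39 passed in edgeR, where 60 of 6102 and 69 of 6095 genes were called lower. Without untreated library 1 or 2, or 0.5 h library 3, 1 gene of the 39 passed. Lower calls over all genes were then 102 of 6116, 118 of 6107 and 80 of 6122, in that order.

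At 1.5 h the 34 genes that fell had log2 fold changes as large as -0.88, in NOP4, and the 5 that did not pass were HAS1 (-0.54), NOC2 (-0.53), NOC3 (-0.43), NOP53 (-0.73) and SPB4 (-0.26). With any single library left out, 27 to 31 passed, and 25 passed in all 6 such fits. Lower calls over all genes in these fits ran from 314 of 6095 to 444 of 6107, against 591 of 6069 with every library. At 3 h the changes ran from -1.56 in RPF2 and RRP1 to -0.60 in SPB4. Of the 39, 38 passed in all 6 fits with a library left out; the other was NOP53, which passed in 2 of them.

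The step from 0.5 h to 1.5 h was a median log2 fold change of -0.31, and 0 of the 39 passed in edgeR. In that step DESeq2 called NOP8 and CIC1, among 48 lower of 6798 genes. In edgeR few genes of the table passed at all, 0.214% lower and 0.923% higher. From 1.5 h to 3 h the median was -0.53 and 28 fell, against 6.94% of all genes lower and 8.9% higher. RRP1 changed the most in this step (-0.90) and NOP53 the least (-0.10, adjusted p = 0.862). The 28 became 16 without library 2 of 3 h, which was the shallowest, and 18 without library 1 or library 3 of 1.5 h. In these fits, lower calls over all genes were 155 of 6098, 177 of 6119 and 223 of 6121, in that order. The 28 became 2 when the compared groups alone were fitted with the replicate number as a block, where 17 of 5888 genes were called lower. Beyond these left-out fits, the part of depth and of mitochondrial reads in the 3 h values was not tested.

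In solvent alone the same genes were also lower. After 3 h in DMSO 38 of 39 fell relative to untreated cells, with a median log2 fold change of -0.96 and a range of -1.23 (YTM1 and REI1) to -0.45 (SPB4). NOP53 did not pass (-0.61, adjusted p = 0.108). Over all genes 18.5% were lower and 17.6% higher in DMSO. The comparisons of 5-Ph-IAA and of DMSO at 3 h with untreated cells share the untreated libraries. The log2 fold change from untreated cells was -1.56 in 5-Ph-IAA and -1.21 in DMSO for RPF2, -1.52 and -1.23 for YTM1, -1.03 and -1.0 for RPF1, and -1.14 and -0.58 for NOP16. No untreated or DMSO group was taken at 0.5 h or 1.5 h, so the changes at those times cannot be told apart from those of solvent and time in culture.

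**Figure D4:**
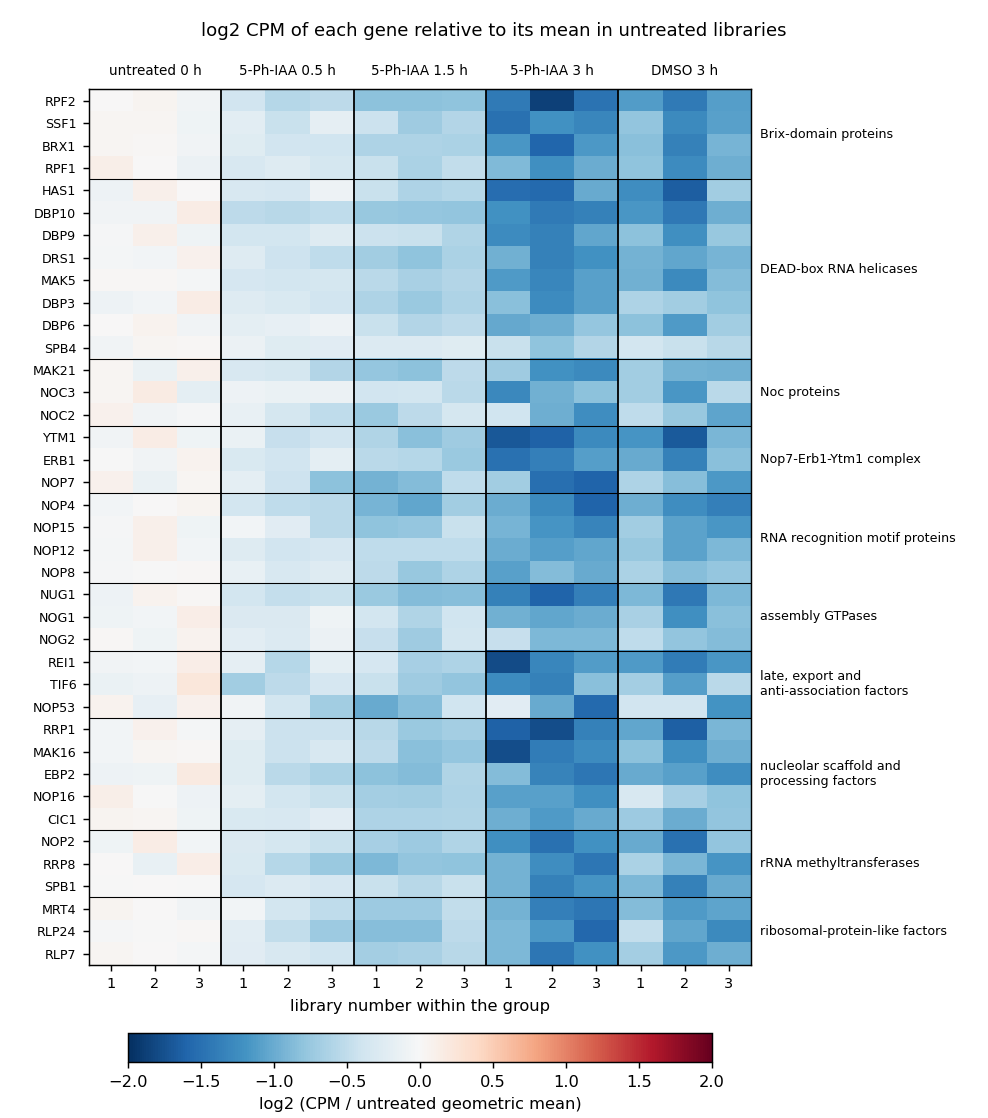
Colour gives log2 of the CPM of each gene (rows, grouped by role) over its geometric mean in the untreated libraries, for libraries 1 to 3 of each group (columns). Blue is lower than untreated; the colour deepens from 0.5 h to 3 h of 5-Ph-IAA, and the DMSO libraries are also blue.

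The DEAD-box RNA helicases use ATP to open RNA helices in the particle. The 8 were DBP3 (YGL078C), DBP6 (YNR038W), DBP9 (YLR276C), DBP10 (YDL031W), HAS1 (YMR290C), MAK5 (YBR142W), SPB4 (YFL002C) and DRS1 (YLL008W). All 8 were called lower in the 3 h groups, with 5-Ph-IAA or DMSO, relative to untreated cells, and 6 were at 1.5 h. DBP10 had 442, 443 and 513 CPM in untreated cells, 322, 318 and 327 at 0.5 h, 274, 271 and 269 at 1.5 h and 200, 174 and 182 at 3 h of 5-Ph-IAA, with 207, 172 and 235 in DMSO. Its 4 groups along the course did not overlap, while the 3 h libraries of 5-Ph-IAA lay within the DMSO range. The log2 fold change at 3 h was -1.33 (SE 0.12) over untreated cells and -0.14 (SE 0.12) over DMSO. SPB4, needed for a late nucleolar step, had the smallest log2 fold change of the 39 over untreated cells at 1.5 h, at 3 h and in DMSO. It had 152, 164 and 161 CPM in untreated cells, 146, 134 and 136 at 0.5 h, 131, 131 and 135 at 1.5 h and 117, 90.7 and 106 at 3 h, with 123, 117 and 108 in DMSO. Its untreated libraries were above all the others, and its 3 h and DMSO libraries overlapped. Its change passed at 3 h (-0.60, SE 0.10, adjusted p = 0.000232), and its sign between 0.5 h and 1.5 h depended on scaling (-0.07, or 0.05 with total counts). HAS1, which acts on both subunits, was uneven at 3 h, with 131, 128 and 187 CPM in 5-Ph-IAA and 159, 120 and 231 CPM in DMSO.

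The GTPases NUG1 (YER006W), NOG1 (YPL093W) and NOG2 (YNR053C) act as timing and checkpoint factors of nuclear particles. All 3 were called lower at 1.5 h, at 3 h and in DMSO. NUG1 had 428, 486 and 470 CPM in untreated cells, 357, 330 and 337 at 0.5 h, 274, 253 and 256 at 1.5 h and 181, 151 and 178 at 3 h of 5-Ph-IAA, with 246, 171 and 248 in DMSO. Successive times did not overlap, and DMSO library 2 lay among the 5-Ph-IAA libraries of 3 h. The log2 fold change at 3 h was -1.44 (SE 0.14) over untreated cells and -0.38 (SE 0.13, adjusted p = 0.0927) over DMSO. NOG1, whose product lodges in the exit tunnel of the particle, had 630, 643 and 733 CPM in untreated cells, 545, 547 and 628 at 0.5 h, 516, 440 and 506 at 1.5 h and 343, 323 and 336 at 3 h, with 424, 284 and 374 in DMSO. Its 0.5 h libraries lay just below the untreated ones, and its 3 h libraries fell inside the DMSO range. NOG1 changed by -1.0 (SE 0.14) at 3 h over untreated cells and by -0.11 (SE 0.14) over DMSO. NOG2 has an intron that holds the small nucleolar RNA gene SNR191, and the counting rule for such reads is not given in the sources used here.

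Of the ribosomal RNA methyltransferases, NOP2 (YNL061W) modifies a cytosine, RRP8 (YDR083W) an adenine and SPB1 (YCL054W) a ribose. All 3 were called lower at 1.5 h, at 3 h and in DMSO. RRP8 had 403, 362 and 442 CPM in untreated cells, 325, 269 and 239 at 0.5 h, 215, 231 and 229 at 1.5 h and 208, 170 and 148 at 3 h of 5-Ph-IAA, with 258, 213 and 177 in DMSO. Its libraries at 0.5 h were spread widely but all below the untreated ones. It had the largest log2 fold change of the 39 at 0.5 h, -0.54 (SE 0.16), which did not pass (adjusted p = 0.0536), and -0.84 (SE 0.16) at 1.5 h did. SPB1 had 621, 627 and 618 CPM in untreated cells, 491, 515 and 491 at 0.5 h, 459, 422 and 456 at 1.5 h and 322, 244 and 276 at 3 h, with 333, 244 and 308 in DMSO. The first 3 groups were tight and separate, and at 3 h the 5-Ph-IAA and DMSO libraries covered nearly the same range. SPB1 changed by -1.14 (SE 0.13) at 3 h over untreated cells, and by -0.07 over DMSO, with an unadjusted 95% interval of -0.33 to 0.20.

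NOP7 (YGR103W), ERB1 (YMR049C) and YTM1 (YOR272W) encode a complex that joins early nucleolar particles and is pulled off by the AAA protein Mdn1. All 3 were called lower at 1.5 h, at 3 h and in DMSO. NOP7 had 2313, 1987 and 2249 CPM in untreated cells, 1907, 1630 and 1234 at 0.5 h, 1131, 1192 and 1536 at 1.5 h and 1351, 769 and 714 at 3 h of 5-Ph-IAA, with 1422, 1207 and 985 in DMSO. At 3 h library 1 lay within the DMSO range and the other 2 below it. The log2 fold change at 3 h was -1.21 (SE 0.23, adjusted p = 0.000496) over untreated cells and -0.35 (SE 0.22, adjusted p = 0.399) over DMSO. ERB1 had 377, 361 and 394 CPM in untreated cells, 306, 288 and 328 at 0.5 h, 259, 253 and 226 at 1.5 h and 134, 146 and 176 at 3 h, with 188, 148 and 211 in DMSO. Its order over libraries differed from that of NOP7, with library 1 the lowest at 3 h. ERB1 changed by -1.31 (SE 0.14) and YTM1 by -1.52 (SE 0.17) at 3 h over untreated cells.

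The Brix-domain proteins were BRX1 (YOL077C), RPF1 (YHR088W), RPF2 (YKR081C) and SSF1 (YHR066W). RPF2 and its partner Rrs1 bring the small ribonucleoprotein of the central protuberance into the particle. All 4 fell at 1.5 h, at 3 h, in DMSO, and from 1.5 h to 3 h. RPF2 had 579, 593 and 548 CPM in untreated cells, 440, 385 and 400 at 0.5 h, 326, 323 and 327 at 1.5 h and 216, 157 and 207 at 3 h of 5-Ph-IAA, with 264, 214 and 267 in DMSO. No 2 successive times overlapped, and 1 DMSO library lay among those of 5-Ph-IAA at 3 h. At 3 h it fell by 66.1% relative to untreated cells (log2 -1.56, SE 0.13) and its difference from DMSO was -0.36 (SE 0.13, adjusted p = 0.0968). RPF1 had 221, 205 and 187 CPM in untreated cells, 164, 171 and 159 at 0.5 h, 149, 131 and 145 at 1.5 h and 110, 86.8 and 102 at 3 h, with 117, 84.8 and 104 in DMSO. Its 3 h libraries and its DMSO libraries covered nearly the same range. SSF1 is 92.07% identical to its copy SSF2 over 1362 bases, so some reads may be shared. At 3 h relative to untreated cells SSF1 fell by 60.5%, and SSF2 had a log2 fold change of -0.70 (SE 0.15, adjusted p = 0.00156). Mean CPM went from 265 in untreated cells to 105 for SSF1, and from 198 to 122 for SSF2.

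The ribosomal-protein-like factors RLP7 (YNL002C), RLP24 (YLR009W) and MRT4 (YKL009W) resemble ribosomal proteins, and Rlp24 and Mrt4 hold places that ribosomal proteins take later. All 3 were called lower at 1.5 h, at 3 h and in DMSO. RLP24 had 718, 733 and 749 CPM in untreated cells, 635, 522 and 445 at 0.5 h, 406, 405 and 508 at 1.5 h and 394, 332 and 247 at 3 h of 5-Ph-IAA, with 527, 358 and 304 in DMSO. From 0.5 h on, the spread within each group was large, and the libraries of 0.5 h and 1.5 h overlapped. Its log2 fold change at 3 h was -1.18 (SE 0.20) over untreated cells. RLP7 had 905, 879 and 853 CPM in untreated cells, 750, 702 and 664 at 0.5 h, 547, 561 and 599 at 1.5 h and 470, 321 and 379 at 3 h, with 549, 397 and 445 in DMSO. Its groups along the course were separate, and 5-Ph-IAA and DMSO overlapped at 3 h. RLP7 changed by -1.17 (SE 0.14) at 3 h over untreated cells and by -0.25 (SE 0.14) over DMSO. Per length, MRT4 had the highest untreated level of the 39, at 1370 CPM per kb of coding sequence, RLP24 had 1222 and NOP7 1201, while DBP6 had the lowest, 45.5 (means of 3 libraries).

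The Noc proteins MAK21 (YDR060W, also called Noc1), NOC2 (YOR206W) and NOC3 (YLR002C) form exchanging pairs on early and then on later particles. All 3 were called lower at 3 h and in DMSO, and MAK21 was at 1.5 h. NOC2 and NOC3 did not pass at 1.5 h, though all their libraries lay below the untreated ones. MAK21 had 1056, 937 and 1100 CPM in untreated cells, 820, 803 and 687 at 0.5 h, 601, 581 and 717 at 1.5 h and 628, 444 and 425 at 3 h of 5-Ph-IAA, with 633, 533 and 528 in DMSO. At 3 h its library 1 was at the DMSO level and libraries 2 and 3 below. NOC3 had 188, 205 and 161 CPM in untreated cells, 172, 168 and 169 at 0.5 h, 141, 142 and 127 at 1.5 h and 74.9, 94.5 and 104 at 3 h, with 113, 82.3 and 127 in DMSO. Untreated library 3 of NOC3 lay below all of its 0.5 h libraries. It had the smallest log2 fold change of the 39 at 0.5 h, -0.12 (SE 0.15, adjusted p = 0.735), and one of -1.02 (SE 0.16) at 3 h. MAK21 changed by -1.05 (SE 0.15) at 3 h over untreated cells.

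The proteins with RNA recognition motifs were NOP4 (YPL043W), NOP8 (YOL144W), NOP12 (YOL041C) and NOP15 (YNL110C), which bind the precursor RNA in early particles. All 4 were called lower at 1.5 h, at 3 h and in DMSO. NOP4 had 690, 726 and 744 CPM in untreated cells, 559, 508 and 493 at 0.5 h, 378, 352 and 445 at 1.5 h and 363, 299 and 236 at 3 h of 5-Ph-IAA, with 367, 304 and 280 in DMSO. It was the gene with the largest fall at 1.5 h, where it fell by 45.6% (log2 -0.88, SE 0.15). At 3 h its difference from DMSO was -0.08 (SE 0.15), and library 3 was the lowest in both groups. NOP12 had 375, 411 and 369 CPM in untreated cells, 321, 295 and 305 at 0.5 h, 270, 270 and 269 at 1.5 h and 194, 179 and 188 at 3 h, with 228, 184 and 206 in DMSO. Its libraries were close within each group of 5-Ph-IAA, and the groups along the course did not overlap. NOP12 changed by -1.04 (SE 0.10) at 3 h over untreated cells and by -0.14 (SE 0.10) over DMSO.

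The nucleolar scaffold and processing factors were NOP16 (YER002W), MAK16 (YAL025C), RRP1 (YDR087C), CIC1 (YHR052W) and EBP2 (YKL172W). All 5 were called lower at 1.5 h, at 3 h and in DMSO. NOP16 had 510, 469 and 438 CPM in untreated cells, 413, 367 and 348 at 0.5 h and 293, 290 and 307 at 1.5 h, above the levels at 3 h given earlier. Its 1.5 h libraries of 5-Ph-IAA lay within the range of the DMSO libraries of 3 h. CIC1, which binds an internal spacer of the precursor RNA, had 414, 410 and 375 CPM in untreated cells, 324, 321 and 340 at 0.5 h, 260, 259 and 262 at 1.5 h and 202, 182 and 199 at 3 h, with 240, 201 and 230 in DMSO. Its groups along the course were tight and separate, and the lowest DMSO library lay just below the highest of 5-Ph-IAA. It changed by -1.04 (SE 0.10) at 3 h over untreated cells and by -0.20 (SE 0.10, adjusted p = 0.25) over DMSO. EBP2 had 1111, 1126 and 1354 CPM in untreated cells, 1009, 824 and 768 at 0.5 h, 677, 656 and 788 at 1.5 h and 651, 471 and 438 at 3 h, with 594, 563 and 504 in DMSO. Library 1 of EBP2 at 3 h of 5-Ph-IAA was above every DMSO library and the other 2 were below them all. EBP2 changed by -1.20 (SE 0.16) at 3 h over untreated cells. RRP1 shared the largest log2 fold change at 3 h, -1.56 (SE 0.16), and had 79.9, 72.1 and 96.4 CPM in 5-Ph-IAA, against 119, 79.4 and 130 CPM in DMSO.

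The late factors were NOP53 (YPL146C), whose product brings the exosome to the particle, TIF6 (YPR016C), which keeps the subunits apart, and REI1 (YBR267W), which acts in the cytoplasm. All 3 were called lower at 3 h of 5-Ph-IAA, and TIF6 and REI1 at 1.5 h and in DMSO. NOP53 had 1412, 1199 and 1434 CPM in untreated cells, 1281, 1042 and 826 at 0.5 h, 670, 747 and 1017 at 1.5 h and 1146, 668 and 457 at 3 h of 5-Ph-IAA, with 1033, 1035 and 588 in DMSO. It was uneven at 3 h, with library 1 of 5-Ph-IAA just below the untreated range and library 3 the lowest in both 3 h groups. The log2 fold change at 3 h was -0.83 (SE 0.29, adjusted p = 0.0292) over untreated cells. REI1 had 189, 191 and 218 CPM in untreated cells, 176, 134 and 173 at 0.5 h, 158, 125 and 130 at 1.5 h and 57.6, 80.6 and 91.9 at 3 h, with 91.0, 75.7 and 88.4 in DMSO. Its largest step was the one from 1.5 h to 3 h (log2 -0.84, SE 0.16), and its 3 h libraries overlapped with DMSO. REI1 changed by -1.37 (SE 0.16) at 3 h over untreated cells and by -0.14 (SE 0.16) over DMSO. SLM6 lies on the opposite strand over 453 bases of REI1, and reads of the 2 genes cannot be told apart unless the counting used strand.

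Other gene lists of ribosome production moved in the same direction. Of 45 further large-subunit factors, 9 were called lower after 0.5 h of 5-Ph-IAA, 31 after 1.5 h and 43 after 3 h relative to untreated cells, as were 41 in DMSO, with medians of -0.32, -0.57, -1.05 and -0.92. The shares of all genes called lower were 2.78%, 9.74%, 19.7% and 18.5%. REH1 (YLR387C), a paralog of REI1, went the other way and had 98.4, 100 and 87.3 CPM in untreated cells, 130, 137 and 118 at 0.5 h, 116, 119 and 114 at 1.5 h and 110, 129 and 112 at 3 h of 5-Ph-IAA, with 99.9, 89.0 and 97.1 in DMSO. All of its 5-Ph-IAA libraries were above all of its DMSO and untreated libraries. It rose at 0.5 h (log2 0.43, SE 0.10, adjusted p = 0.0167) and at 3 h (0.29, SE 0.10, adjusted p = 0.0321) over untreated cells, and its difference from DMSO was 0.29 (SE 0.10, adjusted p = 0.0904). Of the 45, the gene that fell relative to DMSO was ALB1 (YJL122W), where 2.87% of all genes were called lower. Its product leaves the particle with Arx1 by the help of Rei1. ALB1 had 98.3, 93.0 and 94.3 CPM at 3 h of 5-Ph-IAA, against 145, 142 and 114 CPM in DMSO. The 2 sets of ALB1 libraries did not overlap, and the log2 fold change was -0.49 (SE 0.11, adjusted p = 0.0128). REH1 and ALB1 were named after their values were seen.

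Over all genes the shares called lower relative to untreated cells were 2.78% at 0.5 h, 9.74% at 1.5 h, 19.7% at 3 h and 18.5% in DMSO. Of 54 factors of the small-subunit processome, 10 were called lower at 0.5 h, 45 at 1.5 h, 54 at 3 h and 52 in DMSO relative to untreated cells, with a median of -1.06 at 3 h. The 10 RNA polymerase I genes had 1, 8, 10 and 10 lower, and the 17 genes of the exosome and processing nucleases had 1, 12, 16 and 16 lower. Ribosomal protein genes followed another course. Of 132, 3 fell at 1.5 h, 106 at 3 h and 86 in DMSO, with medians of -0.02 at 0.5 h, -0.16 at 1.5 h, -0.56 at 3 h and -0.46 in DMSO. At 0.5 h the median of the 39 factors was -0.33 and that of the ribosomal protein genes -0.02, which is a description without a test of the difference. The 303 tested genes outside the 39 that hold both PAC and RRPE had medians of -0.23, -0.42, -0.79 and -0.68 in the same 4 comparisons, and the 4059 with neither had 0.01, 0.03, 0.08 and 0.07. The 303 overlap with the lists above and are not separate from them. Both elements stood in 26 of the 45 further large-subunit factors and 40 of the 54 processome factors. They also stood in 8 of the 10 RNA polymerase I genes and 7 of the 17 exosome and nuclease genes. Of those 303, 207 were called lower and 12 higher at 3 h of 5-Ph-IAA over untreated cells, against 19.7% and 19.6% of all genes.

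**Figure D5:**
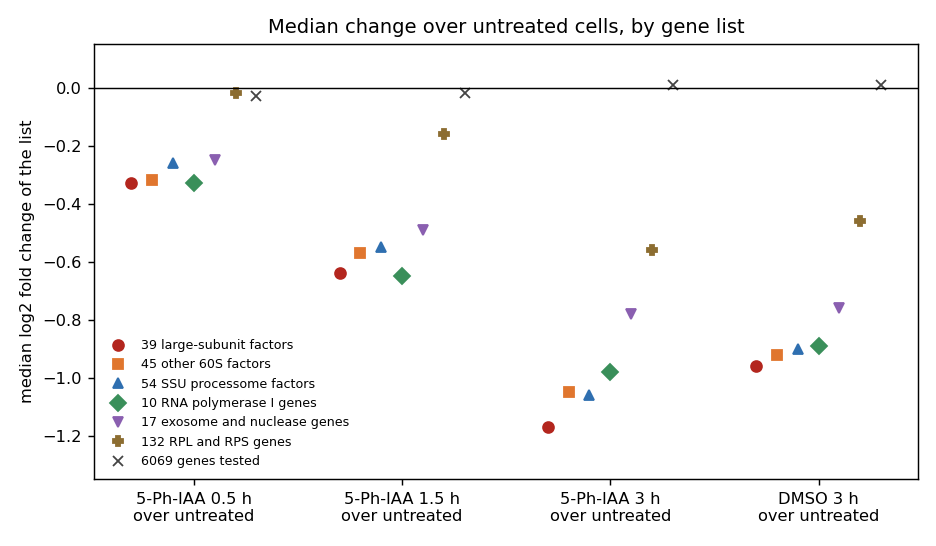
Median log2 fold change over untreated cells (y axis) of 6 gene lists and of all 6069 genes tested (symbols), at 3 times of 5-Ph-IAA and in DMSO (x axis). The medians of the 39 factors run from -0.33 at 0.5 h to -1.17 at 3 h and stand at -0.96 in DMSO, while those of all genes stay between -0.03 and 0.01.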

How the data were processed

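The authors deposited raw counts of reads per gene, 1 column for each of the 15 libraries, and these whole-number counts were used as deposited. Per the submitters' processing notes, genome build R64 was used with STAR 2.7.0, FastQC 0.11.5 and DESeq2 1.34.0. How reads were counted, by strand or not, and where reads with several matches went, is not given in the sources used here.

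Differences were tested with edgeR 4.0.16 (R 4.3.3, limma 3.58.1) by the two-sided quasi-likelihood test, with the filterByExpr filter, TMM factors, all 15 libraries in a fit of group means, and Benjamini-Hochberg adjustment at 0.05 over 6069 genes, of 6798 with a count, in each of 7 comparisons. The biological coefficient of variation was 17%. Unadjusted 95% intervals and standard errors come from the same fit, and log2 CPM used a prior count of 1. Totals of 2530145 to 21282576 counts set the counting precision.

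The 39 genes, the gene lists and the tests were chosen with earlier results of these data known. The ribosomal protein list and the lists by promoter element were added after the values were seen. Values in every library are given for each gene called against DMSO and, in each role group, for those with the largest and smallest change at 1.5 h over untreated cells, 21 in all; other genes with values were named after they were seen. Promoters were read from the R64 reference, whose build is the one the counts used. Equal replicate numbers in the 3 h groups had correlations of deviations from the group means of 0.196, 0.302 and 0.586, and an added fit paired them; this pairing comes from the counts, not the labels. The alternatives were a replicate block, fits of the compared groups only, each library left out in turn, DESeq2 1.42.0, scaling by RLE or by total counts, a minimum mean of 10 CPM or no filter, robust dispersion, a minimum log2 change of 0.5, and, for promoters, longer motifs and a window ending at the start codon. Fits of the compared groups with the block, and with the 3 h libraries paired, were chosen after seeing the data.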

Additional observations from a re-analysis of the deposited data

How the results depend on the processing

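For 5-Ph-IAA against DMSO at 3 h, 1 of the 39 genes was called lower. The count was 5 with total counts alone, 2 with a mean of at least 10 CPM, 3 in DESeq2, 0 for a log2 change of at least 0.5, 0 with only the compared groups, 3 with those groups and a replicate block, 7 with the 3 h libraries paired, and 0 to 6 without 1 library. Lower calls over all genes were 255 of 6069 with total counts, 203 of 5226 with at least 10 CPM and 248 of 6798 in DESeq2. They were 198 of 6083 with the compared groups and block, and 351 of 6069 with the 3 h libraries paired. For a log2 change of at least 0.5 they were 8 of 6069, and with only the compared groups 33 of 6083. Without 1 library they ran from 90 of 6098 to 199 of 6098. At 0.5 h over untreated cells, 2 became 9 with total counts, 5 with the replicate block, 0 for a log2 change of at least 0.5, 7 with only the compared groups, 10 with the replicate block added to these, 11 in DESeq2, and 0 to 2 without 1 library. Lower calls over all genes were 240 of 6069 with total counts, 194 of 6069 with the block and 241 of 5942 with the compared groups. They were 333 of 5942 with the block added to these and 263 of 6798 in DESeq2. For a log2 change of at least 0.5 they were 13 of 6069, and without 1 library 60 of 6102 to 118 of 6107. At 1.5 h over untreated cells, 34 became 0 for a log2 change of at least 0.5 and 27 to 31 without 1 library. Lower calls over all genes were 35 of 6069 and 314 of 6095 to 444 of 6107, in that order. From 1.5 h to 3 h, 28 became 0 for a log2 change of at least 0.5, 2 with only the compared groups and the replicate block, and 16 to 31 without 1 library. Over all genes these fits called 2 of 6069, 17 of 5888 and 155 of 6098 to 613 of 6098 lower, in that order. From 0.5 h to 1.5 h, 0 became 1 with only the compared groups and 2 in DESeq2, and it was 0 without any 1 library. Lower calls over all genes were 79 of 5893 with only the compared groups and 48 of 6798 in DESeq2. At 3 h over untreated cells, 38 to 39 passed without 1 library, and in DMSO over untreated cells 38 did. In these fits 921 of 6095 to 1143 of 6098 genes were called lower at 3 h. In DMSO the counts ran from 829 of 6095 to 1162 of 6101. No gene of the 39 was called higher under any alternative. Outside the 3 h groups equal numbers were not treated as pairs, since at least 1 of the 3 correlations in each comparison was under 0.1, and the replicate block moved no other count by over 1.5 times.

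Median log2 fold changes without 1 library ran from -0.29 to -0.14 for 5-Ph-IAA against DMSO, -0.37 to -0.30 at 0.5 h, -0.64 to -0.61 at 1.5 h, -1.25 to -1.09 at 3 h and -1.06 to -0.89 in DMSO over untreated cells, -0.34 to -0.24 from 0.5 h to 1.5 h and -0.59 to -0.47 from 1.5 h to 3 h. With total counts alone the medians were -0.57 at 1.5 h, -1.03 at 3 h and -0.76 in DMSO over untreated cells, and -0.19 from 0.5 h to 1.5 h; with only the compared groups, with or without the replicate block, the median at 1.5 h was -0.62. With total counts alone the median of all genes was 0.212 in DMSO (0.007 with TMM) and 0.15 at 3 h (0.01) over untreated cells, and 0.107 from 0.5 h to 1.5 h (-0.01). Total counts also moved the split of calls over all genes, to 255 lower and 252 higher for 5-Ph-IAA against DMSO (174 and 308 with TMM). Over untreated cells they gave 240 and 167 at 0.5 h (169 and 204), 415 and 585 at 1.5 h (591 and 477), 844 and 1557 at 3 h (1194 and 1191) and 620 and 1782 in DMSO (1124 and 1069). Between times they gave 5 and 110 from 0.5 h to 1.5 h (13 and 56) and 281 and 608 from 1.5 h to 3 h (421 and 540). Longer motifs (GCGATGAG and GAAAAATTT) were in 69.2% and 48.7% of the 39 promoters, against 3.93% and 6.08% of all.

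For 5-Ph-IAA against DMSO some differences near 0 took both signs when each library was left out in turn. They ran from -0.25 to 0.06 for NOP4, -0.66 to 0.04 for NOP53, -0.26 to 0.02 for NOG1, -0.14 to 0.09 for RPF1, -0.19 to 0.03 for SPB1, -0.29 to 0.02 for EBP2 and -0.32 to 0.03 for REI1. The positive values came without library 3 of 5-Ph-IAA for NOP53 and EBP2, without its library 1 for REI1, without its library 2 or DMSO library 1 for RPF1 and SPB1, without its library 3 or DMSO library 1 for NOP4, and without DMSO library 1 for NOG1. From 1.5 h to 3 h NOP53 ran from -0.53 to 0.16 and was positive without library 3 of 1.5 h or of 3 h, and from 0.5 h to 1.5 h SPB4 was 0.05 with total counts alone. The cause was not tested. Groups of 3 libraries limit which small differences can be called.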

Other observations

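Genes of the factors that bind the shared promoter elements changed in different directions. DOT6 (YER088C), a repressor that binds PAC, had 80.4, 85.2 and 89.2 CPM in untreated cells, 85.0, 91.5 and 78.5 at 0.5 h, 105, 117 and 91.4 at 1.5 h and 156, 147 and 130 at 3 h of 5-Ph-IAA, with 121, 170 and 161 in DMSO. All of its 3 h libraries, in either group, were above the untreated ones, and its log2 fold change over untreated cells was 0.76 (SE 0.13, adjusted p = 0.000278) in 5-Ph-IAA and 0.83 (SE 0.13, adjusted p = 0.000171) in DMSO. TOD6 (YBL054W), its paralog, had 170, 171 and 193 CPM in untreated cells and 86.2, 99.2 and 100 at 3 h of 5-Ph-IAA, with 89.5, 76.2 and 95.3 in DMSO. TOD6 fell by 0.90 (SE 0.12) in 5-Ph-IAA and by 1.03 (SE 0.12) in DMSO on the log2 scale, with no overlap with untreated cells. STB3 (YDR169C), which binds RRPE, had 37.5, 37.2 and 32.5 CPM in untreated cells, 51.8, 48.1 and 47.9 at 1.5 h and 61.3, 46.5 and 46.9 at 3 h of 5-Ph-IAA, with 55.3, 67.3 and 64.6 in DMSO. It rose by 0.46 at 1.5 h, 0.53 at 3 h and 0.80 in DMSO on the log2 scale.

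SCH9 (YHR205W), a kinase that acts on Dot6, Tod6 and Stb3 in growing cells, had 108, 96.5 and 134 CPM in untreated cells, 87.9, 76.4 and 79.9 at 1.5 h and 59.0, 73.2 and 70.0 at 3 h of 5-Ph-IAA, with 55.2, 61.6 and 63.0 in DMSO. It fell by 0.75 (SE 0.13, adjusted p = 0.000217) at 3 h of 5-Ph-IAA and by 0.92 (SE 0.13, adjusted p = 4.68e-05) in DMSO over untreated cells. SFP1 (YLR403W), which encodes an activator of the regulon, differed by -0.09 (SE 0.13) at 3 h and 0.02 (SE 0.13) in DMSO and did not pass. Relative to DMSO at 3 h, the differences in 5-Ph-IAA were -0.06 for DOT6, 0.13 for TOD6, -0.27 for STB3, 0.16 for SCH9 and -0.12 for SFP1, with adjusted p of 0.834, 0.598, 0.213, 0.502 and 0.663. These are mRNA levels of 5 of the 13 regulators listed, picked after their values were seen; protein levels and phosphorylation were not measured in the files.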
